A study of Mus musculus with 12 samples.

Results

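Imprinted genes are expressed according to parental origin, and 10 of them that promote or restrain growth of the embryo were followed across 4 genotypes of mouse embryos. They were Mest, Igf2, H19, Igf2r, Cdkn1c, Dlk1, Meg3, Peg3, Plagl1 and Grb10, and they were chosen by symbol, which picked 10 of the 49671 genes in the deposited count table. Earlier results of these data were known when they were chosen, and the set was built around Mest, whose values are therefore given as a description with no test. Of the 10 genes, 7 had enough reads to be tested. Levels are given in CPM, read counts scaled by the total of each library and by a further factor per library, the TMM factor. Mest lay at 292 ± 91.3 CPM in wild type (mean ± SD, n = 3). When both Lyl1 and Scl were lost, Mest lay at 2.13 ± 1.64 CPM. Grb10 moved the other way, from 15.6 ± 0.7 to 221 ± 129 CPM. Igf2r was higher in the embryos lacking both genes, in a call that was lost in 9 of 15 alternatives, and Cdkn1c was lower in the same embryos without passing the test. The other 6 genes were under 1 CPM in most libraries.

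Imprinted genes are expressed mainly or only from the copy inherited from one parent, a state set by DNA methylation laid down in the germ line and kept in the cells of the embryo. Many of them control fetal and placental growth, and those expressed from the paternal copy tend to promote growth while those expressed from the maternal copy tend to restrain it. Igf2, a growth factor, and its clearance receptor Igf2r are the textbook pair. The counts here are per gene, with no allele and no isoform, so they show how much RNA was present and not from which parental copy it came.

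The libraries were made from polyadenylated RNA of pooled embryos at embryonic day 9.5, with 3 libraries in each of 4 groups labelled WT, LYL1 KO, SCL KO and LYL1 SCL DKO, here called wild type, Lyl1 KO, Scl KO and double KO. Lyl1 and Scl (gene symbol Tal1) encode related transcription factors of blood and vessel cells. How the alleles were made, the strain and the number of embryos in a pool are not stated in the labels, which also do not tie the replicates to litters, so p-values describe only how far these libraries vary. In Scl KO, Tal1 fell by 2.38 ± 0.15 in log2 terms relative to wild type (estimate ± SE; adjusted p = 3.45e-06, edgeR's quasi-likelihood test). In Lyl1 KO the log2 change of Lyl1 was -1.04 ± 0.24, which was not called (adjusted p = 0.286). Total counts lay between 24324685 and 29212443, and a count of 0 allowed up to 0.0936 to 0.131 CPM in a library, a limit that covers counting error only. Only 8 of 36 markers of heart muscle, somite, neural progenitor and endoderm reached 1 CPM in any library, so that the defining transcripts of most of an embryo were nearly absent. The labels name pooled embryos as the source and no sorting or culture, and do not say which cells gave most of this RNA. Of the cell type marker lists followed, that of megakaryocytes and platelets had the highest sum in every library. The levels below can therefore not be read as those of whole embryos. The 12 megakaryocyte and platelet markers summed to 54822 to 62247 CPM in wild type, 60102 to 69025 in Lyl1 KO, 41980 to 57238 in Scl KO and 17017 to 33098 in the double KO. The 12 primitive red cell markers summed to 1111 to 1283 CPM in wild type, 1771 to 2241 in Lyl1 KO, 766 to 1306 in Scl KO and 154 to 587 in the double KO, and the 10 endothelial markers to 1074 to 1167, 1234 to 1400, 673 to 728 and 500 to 610 CPM. These sums move with the groups compared below. Fewer cells of a type and less RNA per cell cannot be told apart in such bulk samples. Transcripts of the Y chromosome were present at 189 to 265 CPM over 4 genes in double KO 1 and 2 and in Lyl1 KO 3, and at most at 0.214 CPM elsewhere. Xist, the RNA of the silenced X chromosome, was at 0.402 to 1.79 CPM in those 3 libraries and at 356 to 740 CPM elsewhere. No library was high in both, as a pool of both sexes would be. Wild type and Scl KO had no library with Y transcripts, so sex was not balanced between the groups.

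The stretches just before the start sites of Mest, Grb10 and Igf2r, the member given as a description and the 2 called in a test, are shown first, because Scl and Lyl1 belong to the helix-loop-helix proteins, whose partners bind the letters CANNTG, and in blood cells often act beside GATA factors. All are from RefSeq on GRCm38.p6, 250 bases long, 5′ to 3′ on the strand of the gene, with capitals marking CANNTG (which reads the same on both strands) or GATAA on either strand. RefSeq windows were matched for 8 of the 10 members.
Mest, chr6:30737800-30738049, plus strand: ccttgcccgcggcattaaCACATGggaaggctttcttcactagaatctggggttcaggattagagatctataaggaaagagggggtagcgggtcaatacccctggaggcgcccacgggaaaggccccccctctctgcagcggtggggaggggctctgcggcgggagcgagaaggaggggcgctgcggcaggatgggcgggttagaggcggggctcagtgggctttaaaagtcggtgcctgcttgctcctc
Grb10 distal start, chr11:12037421-12037670, minus strand: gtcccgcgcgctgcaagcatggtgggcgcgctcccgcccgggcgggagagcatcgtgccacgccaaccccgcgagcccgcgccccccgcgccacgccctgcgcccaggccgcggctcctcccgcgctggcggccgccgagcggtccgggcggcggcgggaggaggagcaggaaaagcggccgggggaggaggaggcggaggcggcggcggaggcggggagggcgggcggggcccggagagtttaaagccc
Grb10 proximal start, chr11:12027972-12028221, minus strand: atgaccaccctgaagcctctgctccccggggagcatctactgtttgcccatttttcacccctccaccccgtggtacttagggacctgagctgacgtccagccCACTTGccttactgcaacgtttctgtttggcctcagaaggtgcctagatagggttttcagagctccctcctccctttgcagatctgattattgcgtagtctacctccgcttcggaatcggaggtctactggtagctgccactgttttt
Igf2r, chr17:12769707-12769956, minus strand: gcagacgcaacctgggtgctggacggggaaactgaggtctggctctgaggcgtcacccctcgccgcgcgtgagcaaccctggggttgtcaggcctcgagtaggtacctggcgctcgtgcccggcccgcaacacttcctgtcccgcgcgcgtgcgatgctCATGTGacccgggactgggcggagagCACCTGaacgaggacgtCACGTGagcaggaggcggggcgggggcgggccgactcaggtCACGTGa
The Mest window shown holds 14 CpG sites, 1 CANNTG and 2 copies of TGCCGC (searched on both strands), the letters recognised when methylated by the imprint-keeping protein ZFP57. The window of an upstream Mest start (chr6:30733256-30733505), not printed, holds 7 CpG sites, 2 CANNTG and 0 TGCCGC. The distal Grb10 window is denser, with 40 CpG sites, more than 98.7% of the windows searched, and no CANNTG, while the proximal one has 8 CpG sites and 1 CANNTG. The Igf2r window has 27 CpG sites and 4 CANNTG. Over 32851 windows of the same length, 66.2% held CANNTG, 22.6% GATAA and 8.7% TGCCGC, with a median of 6 CpG sites. A match is a description of letters and not of binding, and no match says only that these letters are not in this window.

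Scaled by gene length, the order of the members turned over between wild type and the double KO. In wild type, Mest led at 74.0 ± 23.2 RPKM (CPM per kilobase of transcript; mean ± SD, n = 3), followed by Cdkn1c at 14.8 ± 8.38, Igf2r at 7.50 ± 1.26 and Grb10 at 1.72 ± 0.0771 RPKM. In the double KO, Grb10 led at 24.3 ± 14.2 RPKM, followed by Igf2r at 14.8 ± 8.49, Cdkn1c at 4.16 ± 4.40 and Mest at 0.540 ± 0.417 RPKM. In the double KO the RPKM of Grb10 and Igf2r overlap within 1 SD, as do those of Cdkn1c with both Igf2r and Mest. In wild type those of Cdkn1c and Igf2r overlap too. The order of such neighbours is not beyond the spread. H19 was at 0.907 ± 1.48 RPKM in wild type, and each of the other 5 members at under 0.1 RPKM. The same 6 were the lowest in the double KO, with H19 at 0.245 ± 0.281 RPKM within 1 SD of Mest. Scl KO lay between the 2 orders, with Cdkn1c at 11.4 ± 7.12, Igf2r at 6.77 ± 2.45, Mest at 6.58 ± 4.08 and Grb10 at 4.17 ± 0.871 RPKM. All of these overlap within 1 SD.

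Mest (ENSMUSG00000051855, chromosome 6, 30723547 to 30748465, plus strand, GRCm38) encodes a protein of the hydrolase fold and is expressed from the paternal copy, chiefly in mesoderm of the embryo. The 3 wild-type libraries held 381, 297 and 198 CPM, and those of Lyl1 KO 438, 293 and 315 CPM. Scl KO libraries held 30.7, 39.2 and 8.05 CPM, and double KO libraries 4.02, 1.03 and 1.34 CPM. The wild-type and Lyl1 KO libraries overlapped, every Scl KO library lay below every one of those, and every double KO library lay below every Scl KO library. Scl KO retained 8.90% of the wild-type mean and the double KO 0.730%. The double KO values rest on 120, 31 and 43 counts, all above the 3 counts that a count of 0 allows.

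As fitted log2 fold changes, the level of Mest differed from wild type by 0.26 ± 0.50 in Lyl1 KO, -3.49 ± 0.55 in Scl KO and -7.10 ± 0.67 in the double KO (± SE). The last value is 137-fold lower. The double KO lay -3.61 ± 0.60 from Scl KO and -7.36 ± 0.68 from Lyl1 KO. These comparisons share groups: each wild-type and each double KO library enters several of them. Losing Lyl1 on top of Scl went with a 12.2-fold lower level, whereas losing Lyl1 alone went with a 1.19-fold higher one, and the difference between these 2 effects was -3.87 ± 0.77 on the log2 scale. Leaving out any 1 library moved the difference between the double KO and wild type only between -7.93 and -6.77. The megakaryocyte marker sum was lower in the double KO, at 17017 to 33098 against 54822 to 62247 CPM in wild type. Its single markers differed widely. In the double KO they ranged from Tubb1, at 3.17% of the wild-type mean, to Selp, at 115%. In Scl KO Tubb1 was at 26.4%. The part of these markers in the Mest levels was not tested. Mesenchyme markers include genes of mesodermal connective tissue. They summed to 150 to 163 CPM in wild type and 11.7 to 89.6 in Lyl1 KO. In Scl KO the sums were 31.5 to 353 CPM and in the double KO 20.5 to 47.0 CPM. The highest sum was in Scl KO 1, where Col1a1 was at 132 and Col1a2 at 156 CPM. Of the 12 markers 9 reached 1 CPM, with Dpt and Foxf1 at or near 0. The part of the mesenchyme markers in the Mest levels was not tested.

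**Figure D1:**
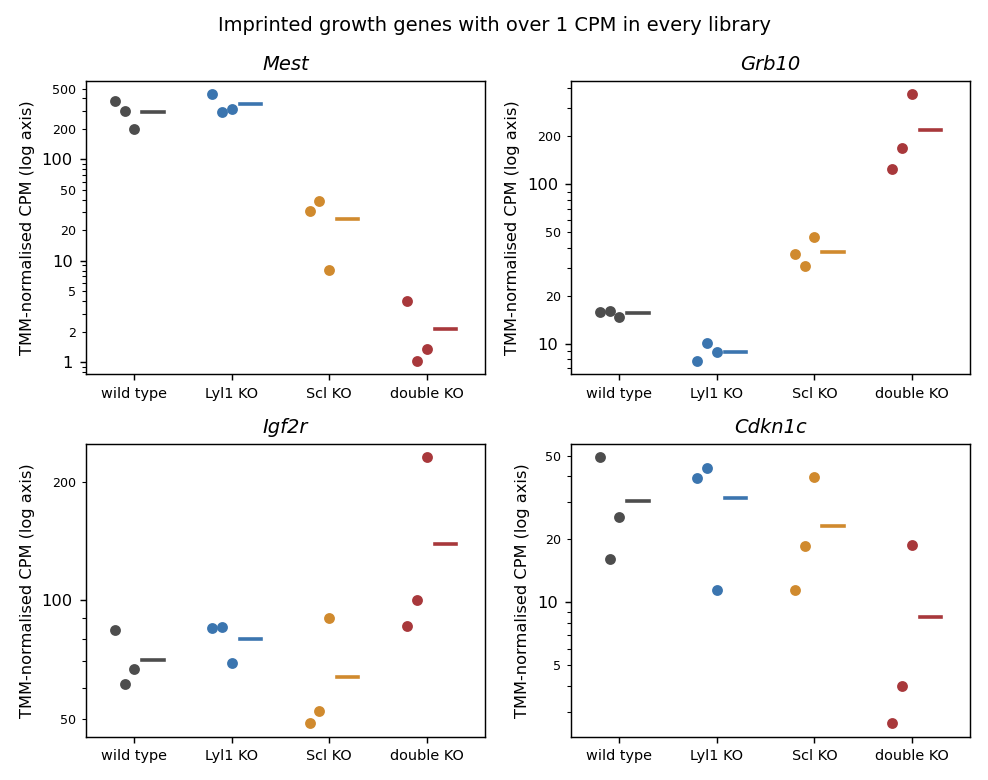
TMM-normalised CPM (log axis) of Mest, Grb10, Igf2r and Cdkn1c in each of the 12 libraries (points, replicates 1 to 3 from left to right), with the group mean as a line. Mest lies between 198 and 438 CPM in wild type and Lyl1 KO and at or under 4.02 CPM in the double KO, Grb10 rises from at most 16.1 CPM in wild type to at least 125 CPM in the double KO, and Igf2r and Cdkn1c have 1 double KO library apart from the other 2.

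The gene whose exons overlap those of Mest changed far less than Mest. Copg2, a coat protein gene on the opposite strand, shares up to 912 bases of exon with Mest, and the counting took strand into account. Copg2 lay at 93.6, 90.6 and 86.2 CPM (wild type), 103, 87.5 and 88.2 CPM (Lyl1 KO), 73.4, 75.6 and 76.9 CPM (Scl KO) and 90.9, 74.8 and 71.1 CPM (double KO). The log2 change of Copg2 against wild type was -0.19 ± 0.10 in the double KO (adjusted p = 0.176, edgeR) and -0.26 ± 0.10 in Scl KO (adjusted p = 0.21). Its Scl KO libraries all lay below those of wild type and Lyl1 KO, but Copg2 was not called in any of the 6 comparisons. Mest also hosts the hairpin of miR-335, which lies within the gene and in none of its exons. The 2 mature forms are shown with the seed, bases 2 to 8, in capitals, because they are the other products of the same transcription unit.
miR-335-5p: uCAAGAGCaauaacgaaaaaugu
miR-335-3p: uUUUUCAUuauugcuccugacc
The 2 seeds differ. The hairpin had 12 counts over all 12 libraries, and libraries of polyadenylated RNA do not measure mature miRNAs, so their levels are not known here.

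Grb10 (ENSMUSG00000020176, chromosome 11, 11930508 to 12038683, minus strand) encodes an adaptor that binds the insulin and IGF1 receptors and restrains their signal, and is expressed from the maternal copy in most tissues. Wild-type libraries held 15.9, 16.1 and 14.8 CPM of it, and Lyl1 KO libraries 7.82, 10.1 and 8.85 CPM. Scl KO libraries held 36.3, 30.9 and 46.5 CPM, and double KO libraries 125, 170 and 367 CPM. No 2 of the 4 groups overlapped, with Lyl1 KO lowest and the double KO highest.

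In the test across all genes, the log2 rise of Grb10 was 3.82 ± 0.34 in the double KO against wild type (adjusted p = 9.78e-06, edgeR), which is 14.2-fold. It rose by 2.54 ± 0.32 against Scl KO (adjusted p = 0.000331) and by 4.63 ± 0.36 against Lyl1 KO (adjusted p = 2.84e-06). These 3 calls held in every alternative tried, and without double KO 3, the highest library, the values were 3.23, 1.95 and 4.04. In Scl KO against wild type Grb10 rose by 1.28 ± 0.32 (adjusted p = 0.0396), a call that was lost in 8 of 15 alternatives, among them each of the 6 that leave out 1 library of either group (adjusted p between 0.0602 and 0.141). The log2 change in Lyl1 KO was -0.81 ± 0.33 and was not called (adjusted p = 0.562), although the 3 libraries lay below all 3 of wild type. The interaction, the log2 change on losing Lyl1 in embryos without Scl (2.54) less that in embryos with Scl (-0.81), was 3.35 ± 0.46 (adjusted p = 0.00163). Since the set was assembled with results known, these p-values are no independent evidence. The sum of the 8 neural progenitor markers moved with Grb10 over the groups. It was 0.891 to 4.67 CPM in Lyl1 KO and 3.83 to 5.37 in wild type. In Scl KO it was 11.5 to 24.9 CPM and in the double KO 24.9 to 86.6 CPM, highest in double KO 3. Nearly all of the sum was Nes, a gene of an intermediate filament and the 1 marker that reached 1 CPM. Nes rose in the double KO against wild type (3.38 ± 0.63, adjusted p = 0.00148, edgeR). The rest did not share this rise as a set. Sox2, at up to 0.339 CPM elsewhere, and Pax6 were at 0 in the double KO, while Dcx had reads only in Scl KO and the double KO. Sox1 and Sox3 were at 0 in every library. The part of these markers in the Grb10 levels was not tested. Double KO 3 was the double KO library without transcripts of the Y chromosome. With a term for these transcripts, an alternative chosen after seeing the data, the change of Grb10 in the double KO against wild type was 4.20 (adjusted p = 7.44e-06).

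Igf2r (ENSMUSG00000023830, chromosome 17, 12682406 to 12769664, minus strand) encodes the receptor that takes IGF2 up for breakdown and is expressed from the maternal copy in the mouse. Its values were 84.1, 61.2 and 66.9 CPM (wild type), 84.9, 85.9 and 69.2 CPM (Lyl1 KO) and 48.7, 52.4 and 90.5 CPM (Scl KO). Double KO libraries held 86.2, 101 and 232 CPM, so that 2 of the 3 libraries were just above the highest wild-type library and 1 stood apart. The log2 rise against wild type was 0.98 ± 0.34 (adjusted p = 0.0422) and against Scl KO 1.13 ± 0.34 (adjusted p = 0.0376, edgeR). Without double KO 3 the values were 0.39 (adjusted p = 0.257) and 0.53 (adjusted p = 0.177), and neither was called. The call against wild type was also lost without wild type 1, 2 or 3 (adjusted p = 0.064, 0.128 and 0.0991) and with the replicate number as a block (0.87, adjusted p = 0.0697), in 9 of 15 alternatives in all. The call against Scl KO was also lost without Scl KO 1 or 2 (adjusted p = 0.16 and 0.139), in 6 of 15 alternatives in all. Against Lyl1 KO the log2 difference was 0.80 ± 0.34 and was not called (adjusted p = 0.0858). Neither single loss was called, at 0.18 ± 0.34 in Lyl1 KO (adjusted p = 0.928) and -0.15 ± 0.34 in Scl KO (adjusted p = 0.878).

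Cdkn1c (ENSMUSG00000037664, chromosome 7, 143458339 to 143461050, minus strand) encodes p57, an inhibitor of cyclin-dependent kinases that slows the cell cycle, and is expressed from the maternal copy. Its libraries varied widely within each group: 49.3, 16.1 and 25.4 CPM (wild type), 39.3, 43.5 and 11.4 CPM (Lyl1 KO), 11.4, 18.7 and 39.4 CPM (Scl KO) and 2.65, 3.98 and 18.8 CPM (double KO). Double KO 1 and 2 were below every other library, and double KO 3 was within the range of wild type. The log2 change against wild type was -1.83 ± 0.75 and did not pass the test (adjusted p = 0.0782). The other values were -1.44 ± 0.74 against Scl KO (adjusted p = 0.205) and -1.89 ± 0.75 against Lyl1 KO (adjusted p = 0.0706). Without double KO 3 all 3 passed, at -3.20 (adjusted p = 0.0094), -2.82 (adjusted p = 0.0279) and -3.25 (adjusted p = 0.00805). Double KO 1 and 2 are also the libraries of that group with transcripts of the Y chromosome, and with a term for these the change against wild type was -0.88 (adjusted p = 0.278). Against Lyl1 KO the change did pass with that term. There it also passed without Lyl1 KO 3 and with wild type 3 and double KO 3 both left out. Against wild type it passed with those libraries both left out too. No other single library of the groups compared, left out, brought a call of Cdkn1c in these 3 comparisons.

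**Figure D2:**
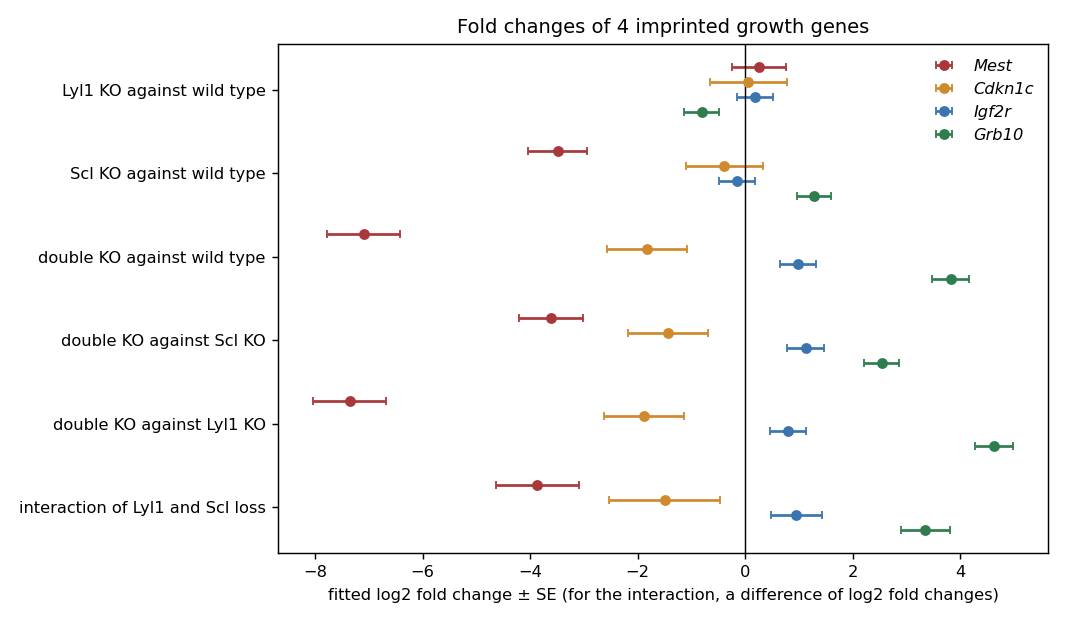
Fitted log2 fold change (x axis, point) with its SE (bar) of Mest, Cdkn1c, Igf2r and Grb10 in each of 5 comparisons and for the interaction (how far losing Lyl1 had another effect in embryos without Scl than in those with it). Mest reaches -7.10 and Grb10 3.82 in the double KO against wild type, and in Lyl1 KO against wild type all 4 lie within 0.81 of 0.

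Igf2 and H19, neighbours on chromosome 7 that share enhancers, were scarce. Igf2 (ENSMUSG00000048583, 142650766 to 142666816, minus strand), the fetal growth factor expressed from the paternal copy, had 0, 0 and 35 counts in wild type, and 20 counts in all over the other 9 libraries. This put it at 1.28 CPM in wild type 3 and at no more than 0.377 CPM elsewhere, too low to be tested. H19 (ENSMUSG00000000031, 142575529 to 142578143, minus strand), a long noncoding RNA of the maternal copy, had levels of 0.0833, 0.174 and 6.20 CPM (wild type), 1.05, 1.43 and 0 CPM (Lyl1 KO), 0.116, 1.53 and 0 CPM (Scl KO) and 0.435, 0 and 1.31 CPM (double KO). Wild type 3 held the highest value of both genes, and all groups overlapped. The same library had the highest sum of heart muscle markers, 4.89 CPM against at most 0.892 CPM elsewhere, and of somite markers, 5.87 against at most 1.47 CPM, with Myh6, Nkx2-5 and Myf5 among those at 0 in every library. Their part in these levels was not tested.

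Dlk1 and Meg3 form a like pair on chromosome 12. Dlk1 (ENSMUSG00000040856, 109452823 to 109463336, plus strand), a membrane protein of the Notch ligand type expressed from the paternal copy, had 9 counts in wild type 1, 3 counts in Lyl1 KO 3 and 0 in the other 10 libraries. Meg3 (ENSMUSG00000021268, 109541001 to 109571726, plus strand), the noncoding RNA of the maternal copy, had 42 counts in all and at most 0.458 CPM, in wild type 1. Neither could be tested, and for Dlk1 in Scl KO and the double KO, levels of up to 0.0936 to 0.116 CPM in a library could not be detected at this depth.

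Peg3 and Plagl1, paternally expressed genes for zinc finger proteins, were detected in most libraries at low level. Peg3 (ENSMUSG00000002265, chromosome 7, 6703892 to 6730431, minus strand) was measured at 0.291, 0.523 and 2.95 CPM (wild type), 0.243, 0.490 and 0 CPM (Lyl1 KO), 0.0387, 0.464 and 0.490 CPM (Scl KO) and 0.804, 0.0664 and 0.437 CPM (double KO). Its highest value was again in wild type 3. Plagl1 (ENSMUSG00000019817, chromosome 10, 13060504 to 13131694, plus strand), a transcription factor tied to other imprinted genes, was between 0.175 and 0.464 CPM in all 9 libraries of wild type and the single KOs. In the double KO it was at 0.0335, 2.92 and 0.343 CPM, so that 1 library was high and 1 low. The smallest adjusted p over the 6 comparisons was 0.413 for H19, 0.302 for Peg3 and 0.208 for Plagl1 (edgeR), and none of the 3 was called.

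**Figure D3:**
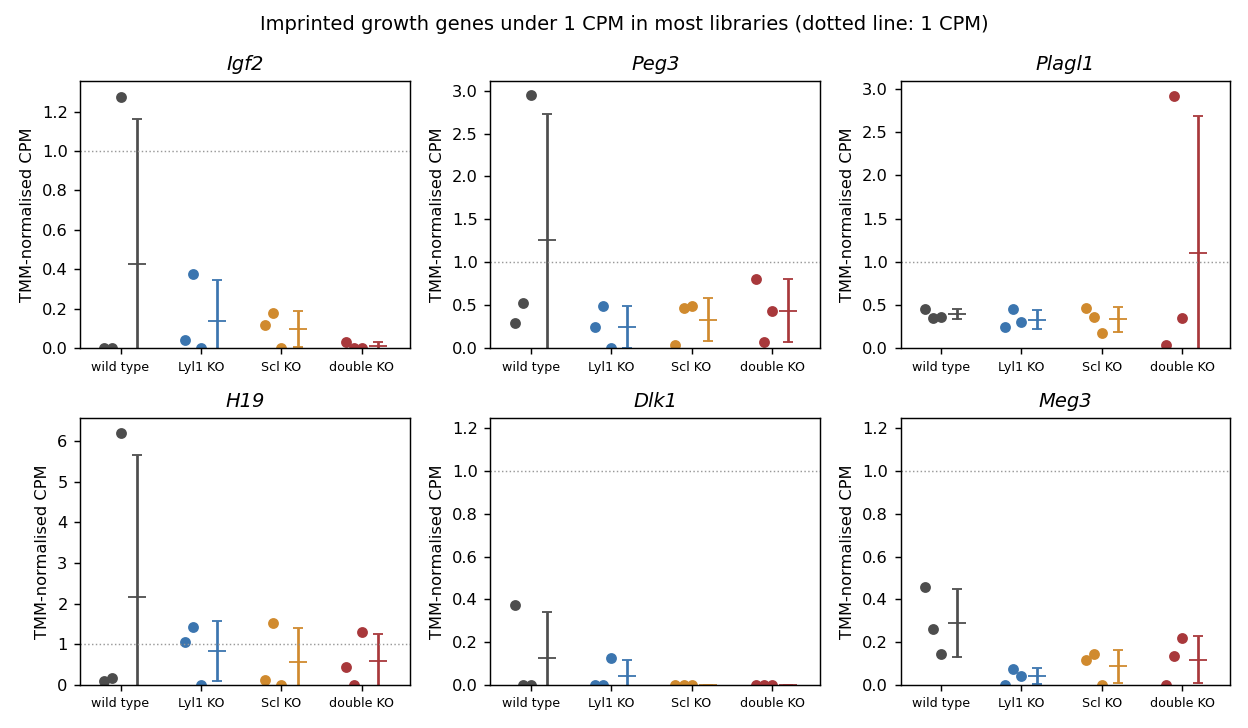
TMM-normalised CPM (linear axis, scale differing by panel) of Igf2, Peg3, Plagl1, H19, Dlk1 and Meg3 per library (points), beside group means with their SD (bars, not drawn below 0) and 1 CPM as a dotted line. Wild type 3 holds the highest points of Igf2 (1.28), H19 (6.20) and Peg3 (2.95), and double KO 2 the highest of Plagl1 (2.92).

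Counting the 6 tested members other than Mest, none was called in Lyl1 KO against wild type, where 0.0714% of all 15399 tested genes were called. By unadjusted p under 0.05, 1 of the 6 (Grb10) passed there, against 7.99% of all genes, and DESeq2 and limma-voom called none. In Scl KO against wild type 1 of 6 was called, Grb10, against 5.03% of all genes (2.29% higher and 2.73% lower). The double KO had 2 of 6 called against wild type (34.5% of all genes, 16.4% higher and 18.1% lower) and 2 of 6 against Scl KO (19.1%, 8.37% higher and 10.8% lower), Igf2r and Grb10 in both, all higher. Against Lyl1 KO 1 of 6 was called (35.2% of all genes, 17.4% higher and 17.9% lower), and for the interaction 1 of 6 (9.38%), Grb10 each time. With shares of this size in the double KO, a count of 1 or 2 among 6 is near the background, and the size of the change of Grb10, not the count, is what was measured. Both called members, Grb10 and Igf2r, are expressed from the maternal copy, as is Cdkn1c, which was not called.

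The other genes of the same imprinted domains were followed from a list of 31, of which 30 were in the table and 11 had enough reads to test. None was called in Lyl1 KO, and 1 (Tssc4) fell in Scl KO against wild type (1 of 11, against 5.03% of all genes). Its call was lost in 7 of 15 alternatives, 5 of which leave out 1 of the 6 libraries. In the double KO against wild type 1 rose and 4 fell, or 5 of 11 against 34.5% of all genes, with a median log2 change of -0.22 against 0.04 for all tested genes. Slc22a3, a cation transporter beside Igf2r, fell from 5.20, 7.06 and 5.36 CPM in wild type to 1.74, 2.62 and 2.03 CPM in the double KO (log2 change -1.46 ± 0.22, adjusted p = 0.000344, edgeR). Cd81, a tetraspanin gene of the domain of Cdkn1c, fell from 342, 309 and 212 to 142, 119 and 80.4 CPM (-1.34 ± 0.23, adjusted p = 0.001). Tssc4 and Cars of the same domain fell by 0.93 ± 0.19 and 0.81 ± 0.17 (adjusted p = 0.00283 and 0.00314). Phactr2, beside Plagl1, rose by 0.46 ± 0.14 (adjusted p = 0.0234), a call lost in 5 of 15 alternatives. Against Lyl1 KO 3 of the 11 rose and 5 fell in the double KO, where 35.2% of all genes were called. Against Scl KO none rose and 2 of 11 fell, against 19.1% of all genes. These were Slc22a3 and Cd81, with calls lost in 8 and 6 of 15 alternatives.

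The antisense noncoding RNAs that silence parts of these domains were low. Airn, which is transcribed across Igf2r from the paternal copy, lay at 0.874, 0.392 and 0.583 CPM (wild type), 0.486, 0.452 and 0.425 CPM (Lyl1 KO), 0.503, 0.678 and 0.735 CPM (Scl KO) and 1.04, 0.896 and 2.31 CPM (double KO). Kcnq1ot1, its counterpart beside Cdkn1c, had 3.25, 1.57 and 3.46 CPM in wild-type libraries and 3.15, 8.70 and 5.68 CPM in double KO libraries. Against Lyl1 KO both were higher in the double KO, by 1.63 ± 0.46 (Airn, adjusted p = 0.0155) and 1.67 ± 0.41 (Kcnq1ot1, adjusted p = 0.0082). Against wild type neither was called (adjusted p = 0.0562 and 0.0567). The call of Airn against Lyl1 KO was lost in 4 of 15 alternatives, among them without Lyl1 KO 2, Lyl1 KO 3 or double KO 3. In double KO 3 both Airn and Igf2r were highest. Of the remaining tested partners, Nap1l4 and Wdr25 were not called in any comparison. Ddc, beside Grb10, was lower in the double KO than in Lyl1 KO (-1.03 ± 0.35, adjusted p = 0.04), a call lost in 8 of 15 alternatives.

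Outside these domains, 38 of 39 listed imprinted genes were in the table, 26 reached 1 CPM in some library and 27 were tested; the imprint of several is known from brain or placenta only. In Lyl1 KO none was called. In Scl KO against wild type 2 rose and none fell (2 of 27, against 5.03% of all genes). In the double KO against wild type 5 rose and 6 fell (11 of 27, against 34.5% of all genes). Against Scl KO 3 rose and 5 fell in the double KO (8 of 27, against 19.1%). Their median log2 change in the double KO against wild type was -0.26 against 0.04 for all genes. Peg10, a retrotransposon-derived gene of the paternal copy needed for the placenta, had levels of 57.7, 71.3 and 89.4 CPM (wild type) and 49.1, 71.6 and 84.9 CPM (Lyl1 KO). Scl KO libraries held 372, 385 and 359 CPM, and double KO libraries 671, 798 and 986 CPM. Peg10 thus rose in Scl KO (2.35 ± 0.22, adjusted p = 0.000124) and in the double KO (3.49 ± 0.23, adjusted p = 1.09e-06), in steps between groups that did not overlap. It is a paternally expressed gene like Mest and rose where Mest was low. The 13 placenta and trophoblast markers summed to 0.261 to 0.984 CPM in wild type, 0.226 to 0.936 in Lyl1 KO, 0.927 to 1.68 in Scl KO and 2.21 to 8.27 in the double KO. Their sum, like Peg10, was highest in the double KO, but in Scl KO it overlapped wild type. Within the double KO the sum was highest in double KO 2 and Peg10 in double KO 3. Of these markers 1 reached 1 CPM, Psg17, which rose in the double KO against wild type (2.80 ± 0.78, adjusted p = 0.0154, edgeR). It was not called in Scl KO (adjusted p = 0.553). The other tested one, Syna, was called higher too, from 0 in all other groups to at most 0.536 CPM, and Prl3d1, Tpbpa and Elf5 were at 0 in all libraries. The 8 markers of maternal decidua summed to 42.6 to 88.3 CPM in wild type and 72.6 to 91.3 in Lyl1 KO. In Scl KO they summed to 101 to 151 CPM and in the double KO to 129 to 208 CPM. Of the 4 tested, Pgr and Bmp2 rose in the double KO against wild type. The other 2 went the other way and were not called: Dcn (-1.35 ± 0.57, adjusted p = 0.0894, edgeR) and Des (-0.55 ± 0.76, adjusted p = 0.61). Prl8a2 was at 0. The part of these in the Peg10 levels was not tested.

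Ppp1r9a, which lies near Peg10 on chromosome 6 and encodes a protein of the actin skeleton at synapses, rose with it. Its levels were 7.37, 8.89 and 8.53 CPM (wild type), 15.9, 18.8 and 17.5 CPM (Scl KO) and 33.4, 45.0 and 30.1 CPM (double KO), with log2 rises in the last 2 groups (1.07 ± 0.18, adjusted p = 0.00472, and 2.13 ± 0.18, adjusted p = 6.59e-06). Bcl2l1, whose protein Bcl-xL keeps platelets and red cell precursors alive, fell in the double KO from 329, 326 and 314 to 138, 111 and 99.6 CPM (-1.48 ± 0.13, adjusted p = 9.78e-06). Trappc9, of a vesicle transport complex, fell from 126, 123 and 98.5 to 52.3, 45.5 and 42.8 CPM (-1.31 ± 0.16, adjusted p = 6.45e-05). Inpp5f, an inositol phosphatase gene, was lower in the double KO than in Scl KO (-0.67 ± 0.11, adjusted p = 0.00156). Imprinted genes thus moved in both directions in the double KO.

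**Figure D4:**
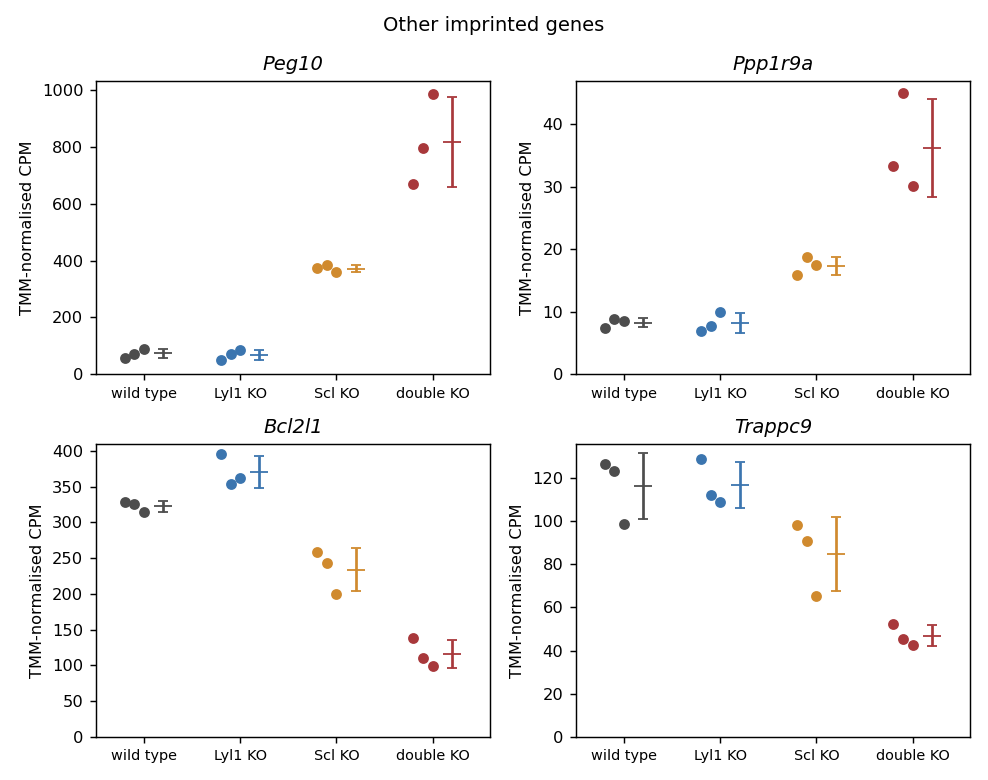
TMM-normalised CPM (linear axis from 0, scale differing by panel) of 4 imprinted genes outside the domains of the 10 members, per library (points), beside group means with their SD (bars, n = 3). Peg10 and Ppp1r9a rise from wild type over Scl KO to the double KO (means of 72.8, 372 and 819 CPM for Peg10), and Bcl2l1 and Trappc9 are lowest in the double KO.

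The IGF and insulin pathway, on which Igf2, Igf2r and Grb10 act, was followed with 34 genes, of which 23 were tested. In Scl KO 1 rose (Insr), or 1 of 23 against 5.03% of all genes. In the double KO against wild type 3 rose and 9 fell (12 of 23, against 34.5% of all genes). Against Scl KO 3 rose and 3 fell in the double KO (6 of 23, against 19.1%). None was called in Lyl1 KO (0.0714% of all genes). Their median log2 change in the double KO against wild type was -0.67, against 0.04 for all genes. Insr, the insulin receptor that Grb10 binds, had levels of 79.6, 79.1 and 78.4 CPM (wild type), 120, 136 and 105 CPM (Scl KO) and 209, 230 and 144 CPM (double KO). Its log2 rise was 1.30 ± 0.15 in the double KO (adjusted p = 5.95e-05) and 0.61 ± 0.15 in Scl KO (adjusted p = 0.0405, a call lost in 5 of 15 alternatives). Stc2, whose protein restrains the release of IGFs from their binding proteins, rose from 1.62, 1.61 and 1.13 to 5.79, 7.50 and 7.77 CPM (2.27 ± 0.32, adjusted p = 0.000231). Downstream, the docking protein gene Gab1 fell from 57.6, 56.9 and 43.2 to 12.1, 14.3 and 13.4 CPM (-1.99 ± 0.15, adjusted p = 3.41e-06), and Pik3cb, a catalytic subunit of the kinase that the receptors switch on, fell by 0.86 ± 0.11 (adjusted p = 0.000144). Akt2, a kinase further down, was lower in the double KO than in Scl KO (-0.59 ± 0.12, adjusted p = 0.00436). Ins2 and Igfbp1 had no reads in any library.

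The partners of Cdkn1c in the control of cell cycle entry were followed with 18 genes, all of them tested. In Scl KO against wild type 1 rose (1 of 18, against 5.03% of all genes). This was Cdkn2a, which went from 0.749, 0.174 and 0.583 to 4.72, 2.28 and 8.75 CPM (3.36 ± 0.79, adjusted p = 0.0309, edgeR, a call lost in 7 of 15 alternatives). In the double KO against wild type 4 rose and 2 fell (6 of 18, near the 34.5% of all genes), with a median log2 change of 0.07 against 0.04 for all genes. Cdkn2a, which encodes the inhibitors p16 and p19ARF, was at 4.09, 5.68 and 24.0 CPM there (4.46 ± 0.81, adjusted p = 0.00123). Cdkn1a, the gene of the inhibitor p21, had 240, 283 and 250 CPM in double KO libraries and 94.5, 77.2 and 132 CPM in those of Scl KO (1.35 ± 0.37, adjusted p = 0.0257, a call lost in 6 of 15 alternatives, 1 of them without double KO 3). Cdkn2c rose against Lyl1 KO by 0.67 ± 0.20 (adjusted p = 0.0194, edgeR, a call lost in 5 of 15 alternatives). Ccnd3, a D-type cyclin, and Rb1, the retinoblastoma gene, fell against wild type by 0.83 ± 0.12 and 0.80 ± 0.13 (adjusted p = 0.000269 and 0.000522), and Rbl2, a relative of Rb1, rose by 0.84 ± 0.13 (adjusted p = 0.00044). Cdkn2a was highest in double KO 3, the double KO library with the most Cdkn1c.

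Genes that keep imprints, such as DNA methyltransferases and the zinc finger proteins that hold methylation at imprinted control regions, were followed with 19 genes. Of these, 17 were tested, none was called in Lyl1 KO or in Scl KO, 2 rose in the double KO against wild type, 1 rose against Scl KO and 5 rose against Lyl1 KO, and none fell. These counts of 17 stand below the shares of all genes called, 34.5%, 19.1% and 35.2%. The median log2 change in the double KO against wild type was 0.25, against 0.04 for all genes. Zfp57, whose protein recognises the letters TGCCGC shown above, had 2.04, 2.57 and 3.83 CPM in wild-type libraries and 5.93, 3.72 and 10.6 CPM in double KO libraries (1.26 ± 0.37, adjusted p = 0.0203, edgeR), with overlap between the groups. The call was lost in 4 of 15 alternatives: in the 6 libraries alone and without wild type 1, wild type 2 or double KO 3. Smchd1, a chromatin protein gene, rose by 0.39 ± 0.09 (adjusted p = 0.00575). Against Lyl1 KO, Zfp445, which acts beside Zfp57, rose by 0.73 ± 0.16 (adjusted p = 0.00382), and Tet2, a gene of active demethylation, by 0.60 ± 0.16 (adjusted p = 0.0127). RNA levels do not show the methylation of any region.

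The genes most like Mest, by Pearson's r of log2 CPM over the 12 libraries among 11291 genes with a mean of at least 1 CPM, were Stx7 (0.994), Pard3b (0.993), Mob2 (0.992), Pitpnm1 (0.991) and Ppif (0.990). All 5 were lower in Scl KO and lowest in the double KO, but far less so than Mest: Pard3b retained 13.1% of the wild-type mean in the double KO and Stx7 53.8%, against 0.730% for Mest. The genes most like Grb10 were Myo1e (0.991), Vcan (0.990), Ift43 (0.989), Ugcg (0.985) and Arhgef2 (0.980). Vcan, the matrix proteoglycan versican, had 9.62, 13.6 and 9.77 CPM in wild-type libraries and 127, 203 and 618 CPM in double KO libraries, so that it too was highest in double KO 3. For Igf2r they were Myo18b (0.971), Rgs2 (0.965), Trib1 (0.952), Slc35c2 (0.945) and Fam234b (0.943), all highest in double KO 3. The libraries are shared between the genes of each pair, and group differences in them set much of r, so that the values are a ranking only.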

How the data were processed

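RNA labelled as that of pooled mouse embryos was sequenced in 12 libraries, with 3 in each of 4 groups taken from the labels. The deposited values are unnormalised counts of reads per gene. The submitters' processing notes name STAR 2.5.2b, featureCounts (Subread 1.5.2), limma and the build GRCm38. Reverse-strand counting over the gene models of Ensembl release 87 is recorded per the file headers. Read length and trimming are not recorded there.

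Symbols were matched by Ensembl identifier for 49326 of 49671 genes. With edgeR 4.0.16 (R 4.3.3) low genes were removed by the default filter (minimum count 10, minimum total 15; 15399 genes), libraries scaled with TMM factors, and groups compared in 1 fit of all 12 libraries by the robust quasi-likelihood F-test. A gene is called where its p, adjusted after Benjamini and Hochberg over all tested genes of a comparison, is under 0.05. CPM values are TMM-normalised, and log2 fold changes carry an SE computed from the F statistic. The script was tested on simulated data. The members and the lists were chosen with earlier results of these data known. The rule for named genes took the 10 members, domain partners with at least 1 CPM or a call, up to 4 called genes per other list and comparison with the smallest adjusted p, and the 5 genes most correlated with Mest and with each called member. Alternatives were DESeq2 size factors, 2 other filters, the Wald test of DESeq2 1.42.0, voom of limma 3.58.1, a replicate block, the compared groups alone and each library left out. A term for Y-linked transcripts and the joint removal of wild type 3 and double KO 3 were chosen after seeing the data. A gene taken by the rule for named genes is not reported here. Deviations from the group means of same-numbered libraries correlated at over 0.1 in all 3 pairs of Scl KO and double KO (r from 0.15 to 0.44). By the rule used here this pairs them, although Scl KO 2 correlated more with double KO 1 (0.231) than with double KO 2 (0.150). In the other groups 1 or 2 of 3 pairs passed 0.1. The main fit has no term for pairs, and the replicate block was an alternative only.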

Additional observations from a re-analysis of the deposited data

Results flagged for a closer look

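For Grb10 the effect of losing Lyl1 in embryos without Scl differed from that in embryos with it, by the interaction term of the fit. The difference was 3.35 on the log2 scale, from 2.54 without Scl and -0.81 with it, and the call held in all 20 alternatives. The same difference for Mest, around which the set was built, is given as a description: it was -3.87, from -3.61 without Scl and 0.26 with it. Both genes belong to a set assembled with results known, so neither is independent evidence.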

How the results depend on the processing

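Fewer or more of the 6 tested members other than Mest were called under some settings. In Scl KO against wild type the count of 1 became 0 without a filter on low counts, with limma-voom, and whichever library was left out (0 to 0). The count of 2 in the double KO against wild type became 1 without the filter, with limma-voom and in the 6 libraries alone, and 1 to 2 on leaving out 1 library. Against Scl KO the count of 2 became 1 without the filter, in the 6 libraries alone and with wild type 3 and double KO 3 both left out, and 1 to 2 on leaving out 1 library. Against Lyl1 KO the count of 1 became 3 with the term for Y-linked transcripts, 2 with both libraries left out, and 1 to 3 on leaving out 1 library. For Lyl1 KO against wild type leaving out 1 library gave 0 to 0, and for the interaction 1 to 1.

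Over all genes, the 11 calls in Lyl1 KO became 103 with DESeq2's Wald test, 29 in the 6 libraries alone, 148 with both libraries left out, and 5 to 41 on leaving out 1. The 774 in Scl KO became 1329 with the Wald test, 1523 with both left out, and 388 to 955 on leaving out 1. Leaving out 1 library gave 3899 to 5528 in the double KO against wild type (5312). That count was 3596 in the 6 libraries alone and 3809 with the term for Y-linked transcripts. For the double KO against Scl KO, leaving out 1 library gave 1645 to 3222 (2947, and 1742 in the 6 libraries alone). Against Lyl1 KO it gave 3884 to 5162 (5422), and for the interaction 671 to 1925 (1444, and 2262 with the Wald test). The cause was not tested.

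In 5 of 6 pairs of groups, replicate numbers did not pair the samples by the rule used. The libraries numbered 3 still correlated there, at 0.361 (wild type and Scl KO), 0.236 (wild type and double KO) and 0.128 (Lyl1 KO and Scl KO). For wild type with Lyl1 KO the value was 0.0774, and for Lyl1 KO with double KO 0.0653. What they share was not tested. Over all 18 pairs of libraries, 10 correlated best with their own number. With the replicate block, Scl KO had 1226 calls, and the count of members in the double KO against wild type became 1, as Igf2r was lost. It changed no other call among the members and listed genes tried.

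Of the tested members named with fold changes, signs turned only for changes near 0 that were not called. Cdkn1c in Lyl1 KO (0.05) ranged from -0.24 to 0.59 when 1 library was left out and was -0.0625 with wild type 3 and double KO 3 both left out. In Scl KO, Igf2r (-0.15) ranged from -0.49 to 0.026 and Cdkn1c (-0.39) from -1.01 to 0.17 when 1 library was left out.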
